A study of Mus musculus with 11 samples.

Results

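The SLC25 family is the large family of carrier proteins that move metabolites across the inner membrane of mitochondria. Its members were taken here as every protein-coding gene of the count table whose name is Slc25a followed by a number, which gave 47 of 54532 genes. A filter on low counts left 39 of them for testing. The counts come from whole hearts of C57BL/6 mice with a labelled time of 26 weeks, in 11 sequencing libraries. The METTL3-labelled group held 4 libraries of HFD+STZ mice that also carried METTL3 by AAV, the HFD+STZ group held 4, and the chow group held 3. The labels do not spell out these letters, which commonly mean high-fat feeding, streptozotocin (which kills pancreatic beta cells) and adeno-associated virus. The labels do not give the virus serotype, its promoter or whether HFD+STZ and chow mice received a control virus. Nor do they say whether replicates are separate animals, and a p-value here reflects only the variation among these libraries, part of which may be technical.

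SLC25 proteins are built from a repeated fold of membrane-spanning helices. Many swap a substrate on the matrix side for another on the cytosolic side, some move a substrate together with protons, and a few members sit in other membranes. In heart muscle the best known members export ATP in return for ADP, import phosphate for ATP synthesis, bring in long-chain fatty acids as acylcarnitines, and carry reducing equivalents through the malate-aspartate shuttle. METTL3 is the enzyme that writes N6-methyladenosine into messenger RNA.

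Depth was 13900531 to 16952639 counts per library. Mettl3 itself had 9.63, 6.51, 6.56 and 10.8 CPM (counts scaled to a common library size) in METTL3-labelled hearts, 7.81, 7.41, 4.39 and 5.78 CPM in HFD+STZ hearts and 7.87, 7.41 and 3.03 CPM in chow hearts. These ranges overlap, and the log2 fold change of METTL3-labelled over HFD+STZ hearts was 0.40 (SE 0.32; edgeR, Benjamini-Hochberg adjusted p = 0.759). A rise of Mettl3 was therefore not detectable in the METTL3-labelled libraries, and every direction below is one between labels. Counts from the mitochondrial genome made up 41.6 ± 3.40% of METTL3-labelled libraries (SD, n = 4), 30.3 ± 1.73% of HFD+STZ libraries (SD, n = 4) and 20.6 ± 9.90% of chow libraries (SD, n = 3). Chow library 3 held 9.28% and stood apart, with 10 of 39 carriers over 2-fold away from the other chow libraries, against 0 to 2 in each other library. Over all genes tested, 36.9% were over 2-fold away in chow library 3. All 8 cardiomyocyte markers checked were present, with summed levels of 33754 to 40321 CPM in METTL3-labelled hearts, 34329 to 49087 CPM in HFD+STZ hearts and 39994 to 45033 CPM in chow hearts. Single markers differed in both directions. At an unadjusted p under 0.05 (edgeR), 2 were higher and 2 lower in METTL3-labelled over HFD+STZ hearts, and likewise over chow hearts. Over all genes 9.06% and 21.7% reached this in the 2 comparisons. Libraries are numbered as the labels number replicates. In the labels' sample codes, chow libraries run from 94 to 98, METTL3-labelled library 4 is 78 and HFD+STZ library 1 is 83, while the other 6 libraries have codes from 25 to 33.

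On a scale of CPM per kilobase of gene length, a single gene held most of the family's summed level in heart RNA. Slc25a4 made up 59.0% of that sum over all libraries. For 44 of 47 carriers the length used equals all annotated exons of the gene joined. A transcript made in heart can be shorter than this, so ranks and shares on this scale are approximate. Slc25a3 has a length of 5550 bases and Slc25a4 of 2353. Without division by length they averaged 1891 and 3433 CPM over all libraries. Slc25a4 encodes the heart isoform of the ADP/ATP carrier. Slc25a3, the phosphate carrier, followed with 13.8%, Slc25a11, the oxoglutarate-malate carrier, with 8.44%, and Slc25a5, the widely expressed ADP/ATP carrier, with 4.78%. Slc25a20, the carnitine-acylcarnitine carrier, gave 1.97% and Slc25a34, whose substrate is not settled, 1.84%. These 6 genes held 89.8% of the summed level per kilobase, and the remaining 41 the rest. The first 4 kept this order in the mean of every group, but the places after them did not. In chow hearts Slc25a39, a glutathione carrier, at 37.6 ± 6.07 CPM per kilobase, and Slc25a13, an aspartate-glutamate carrier, at 34.5 ± 3.90, lay above Slc25a34 at 32.4 ± 14.6 and Slc25a20 at 24.2 ± 2.65 (SD, n = 3). In METTL3-labelled hearts Slc25a39, at 43.0 ± 2.18 CPM per kilobase, lay above Slc25a34 at 39.9 ± 12.2 (SD, n = 4). Tests of these differences between neighbours in the order were not made.

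**Figure D1:**
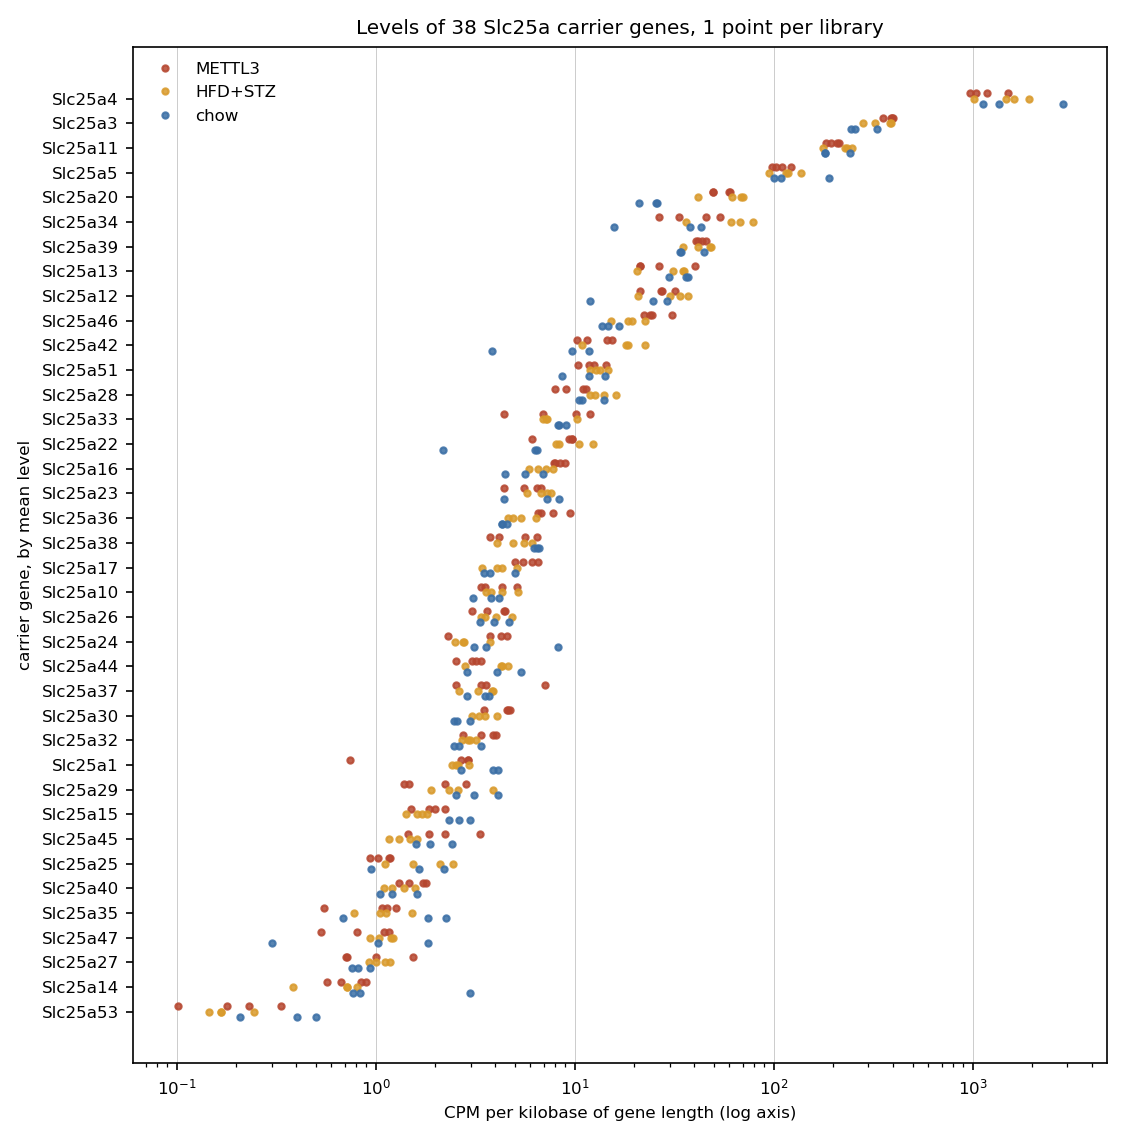
Level of each of 38 tested carrier genes in CPM per kilobase (log axis), 1 point per library, ordered by the mean over 11 libraries. Slc25a4 lies apart at the top, followed by Slc25a3, Slc25a11 and Slc25a5, and Slc25a53 is at the bottom.

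The family's summed level per kilobase was 2217 ± 235 in METTL3-labelled hearts (SD, n = 4), 2573 ± 514 in HFD+STZ hearts (SD, n = 4) and 2680 ± 1029 in chow hearts (SD, n = 3), all in CPM per kilobase. The groups overlap, and chow library 3 alone reached 3862, against 1981 and 2198 in the other chow libraries. Without Slc25a4 the sum was 1043 ± 53.0 in METTL3-labelled hearts, 1066 ± 151 in HFD+STZ hearts and 905 ± 101 in chow hearts. The make-up is given as a description. Slc25a3 held 17.4 ± 1.34% of the summed level in METTL3-labelled hearts, 13.6 ± 1.60% in HFD+STZ hearts and 10.9 ± 2.19% in chow hearts. Slc25a4 held 52.6 ± 5.07%, 58.1 ± 3.25% and 64.1 ± 8.58% in the same order of groups, with the highest share, 73.5%, in chow library 3. No test was run on these shares, which are bound to each other because they add up to the whole.

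**Figure D2:**
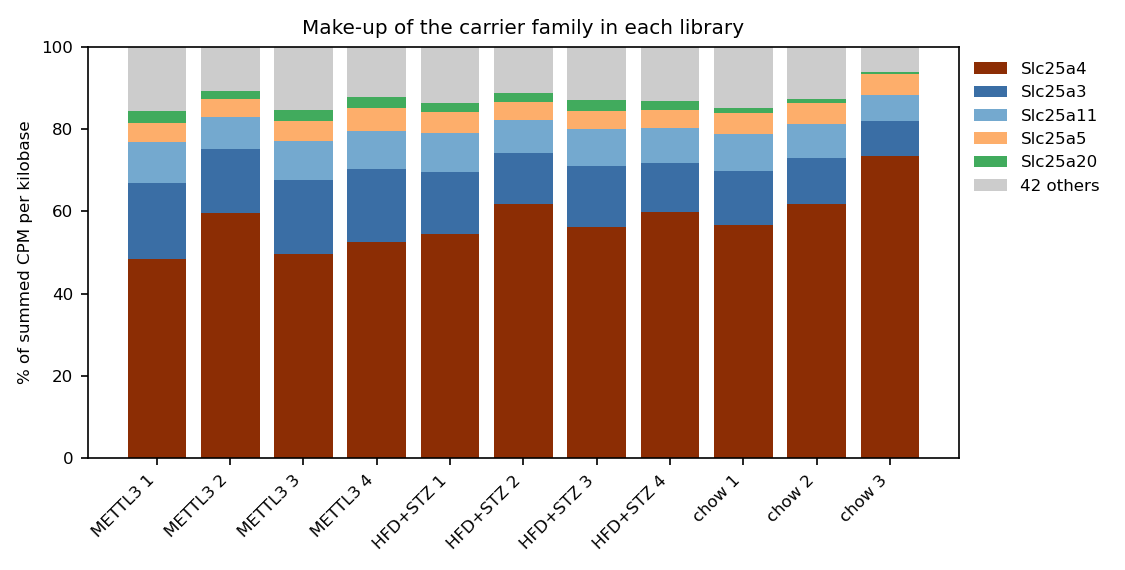
Share of the summed CPM per kilobase held by 5 carriers and by the other 42, in each library. Slc25a20 is a thin band in all libraries, between 1.96% and 2.83% in METTL3-labelled and HFD+STZ hearts and between 0.549% and 1.29% in chow hearts.

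A set of 8 members was not tested because counts were too low. Slc25a41 and Slc25a54, relatives of the ATP-Mg/phosphate carriers, had 0 counts in every library. Slc25a31, the testis isoform of the ADP/ATP carrier, Slc25a2, an ornithine carrier, Slc25a18, a glutamate carrier, Slc25a21, the oxoadipate carrier, and Slc25a43 and Slc25a48, whose substrates are not settled, stayed below 2 CPM in every library. The filter asks for enough counts in as many libraries as the smallest group holds, whichever libraries these are. The 39 tested genes were thus picked by level and are not a neutral sample of the family.

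Between HFD+STZ and chow hearts the carnitine-acylcarnitine carrier rose, and no other carrier passed edgeR's quasi-likelihood test at a Benjamini-Hochberg adjusted threshold of 0.05. This was 1 of 39 carriers, where 0.168% of all 14862 genes tested were called in either direction, 0.135% as higher and 0.0336% as lower. DESeq2 called Slc25a20 higher and also Slc25a15 lower, where it called 1.61% of the genes to which it gave an adjusted p higher and 0.466% lower. Among the carriers limma voom called 8 higher (Slc25a3, Slc25a11, Slc25a20, Slc25a22, Slc25a34, Slc25a39, Slc25a42 and Slc25a46), where it called 6.84% of all genes higher, and 3 lower (Slc25a15, Slc25a35 and Slc25a45), where it called 6.31% lower. At an unadjusted p under 0.05 in edgeR, 4 carriers were higher (Slc25a20, Slc25a22, Slc25a34 and Slc25a42), where 5.58% of all genes were, and 4 lower (Slc25a14, Slc25a15, Slc25a24 and Slc25a53), where 6.53% were. That is 20.5% of the tested family against a background of 12.1% in either direction. The groups did not overlap for 6 carriers, 15.4%, against 10.4% of all genes. Slc25a20, Slc25a22, Slc25a30 and Slc25a36 lay higher without overlap (background 5.52%) and Slc25a15 and Slc25a38 lower (background 4.88%). The median log2 fold change was 0.05 over the carriers and -0.02 over all genes. In a whole-heart sample, a change in the share of a cell type and a change of RNA per cell cannot be told apart.

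Between METTL3-labelled and chow hearts 3 carriers rose by edgeR's test: Slc25a20, Slc25a36, which carries pyrimidine nucleotides, and Slc25a46, an outer membrane protein that shapes mitochondria. No carrier was called lower by edgeR. The background was 3.2% of all genes called, 1.82% as higher and 1.37% as lower. DESeq2 called these 3 and also Slc25a16 and Slc25a30 higher and no carrier lower, where it called 5.42% of genes higher and 4.76% lower. The calls of limma voom were 9 higher, which were the same 5 with Slc25a3, Slc25a17, Slc25a22 and Slc25a40, where it called 11.5% of all genes higher, and 4 lower (Slc25a25, Slc25a28, Slc25a29 and Slc25a35), where it called 9.19% lower. Without chow library 3 and HFD+STZ library 1 together, edgeR called 5 carriers higher and Slc25a44 lower. The 5 were Slc25a3, Slc25a20, Slc25a30, Slc25a36 and Slc25a46, and 8.38% of all genes were called there in either direction. At an unadjusted p under 0.05 in edgeR, 8 carriers were higher (background 10.6%) and 3 lower (among them Slc25a15 and Slc25a29; background 11.1%), or 28.2% of the tested family against 21.7% of all genes. The groups did not overlap for 9 carriers, 23.1%, against 18.8% of all genes, with 7 higher (background 10.5%) and 2 lower (background 8.26%). This comparison shares its chow libraries with that of HFD+STZ hearts, so the values for the same gene in both are not independent of each other.

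Between METTL3-labelled and HFD+STZ hearts 0 of 39 carriers passed edgeR's quasi-likelihood test after Benjamini-Hochberg adjustment, as did 0% of all genes. At an unadjusted p under 0.05, edgeR gave 6 carriers: Slc25a17, Slc25a36, Slc25a45 and Slc25a46 higher, where 5.43% of all genes were, and Slc25a25 and Slc25a28 lower, where 3.63% were. That is 15.4% of the tested family against a background of 9.06%. Groups did not overlap for Slc25a16 and Slc25a36, which were higher (background 5.43%), and for Slc25a28, which was lower (background 4.14%), or 7.69% of the tested carriers against 9.57% of all genes. DESeq2 and limma voom also called 0 carriers here, while they called 139 and 395 genes over the whole table, or 1.29% and 2.66% of those with an adjusted p. The 95% intervals of the carriers' log2 fold changes reached from -1.37 for Slc25a25 to 1.29 for Slc25a45, so differences of over 2-fold in single carriers lie within some of them.

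**Figure D3:**
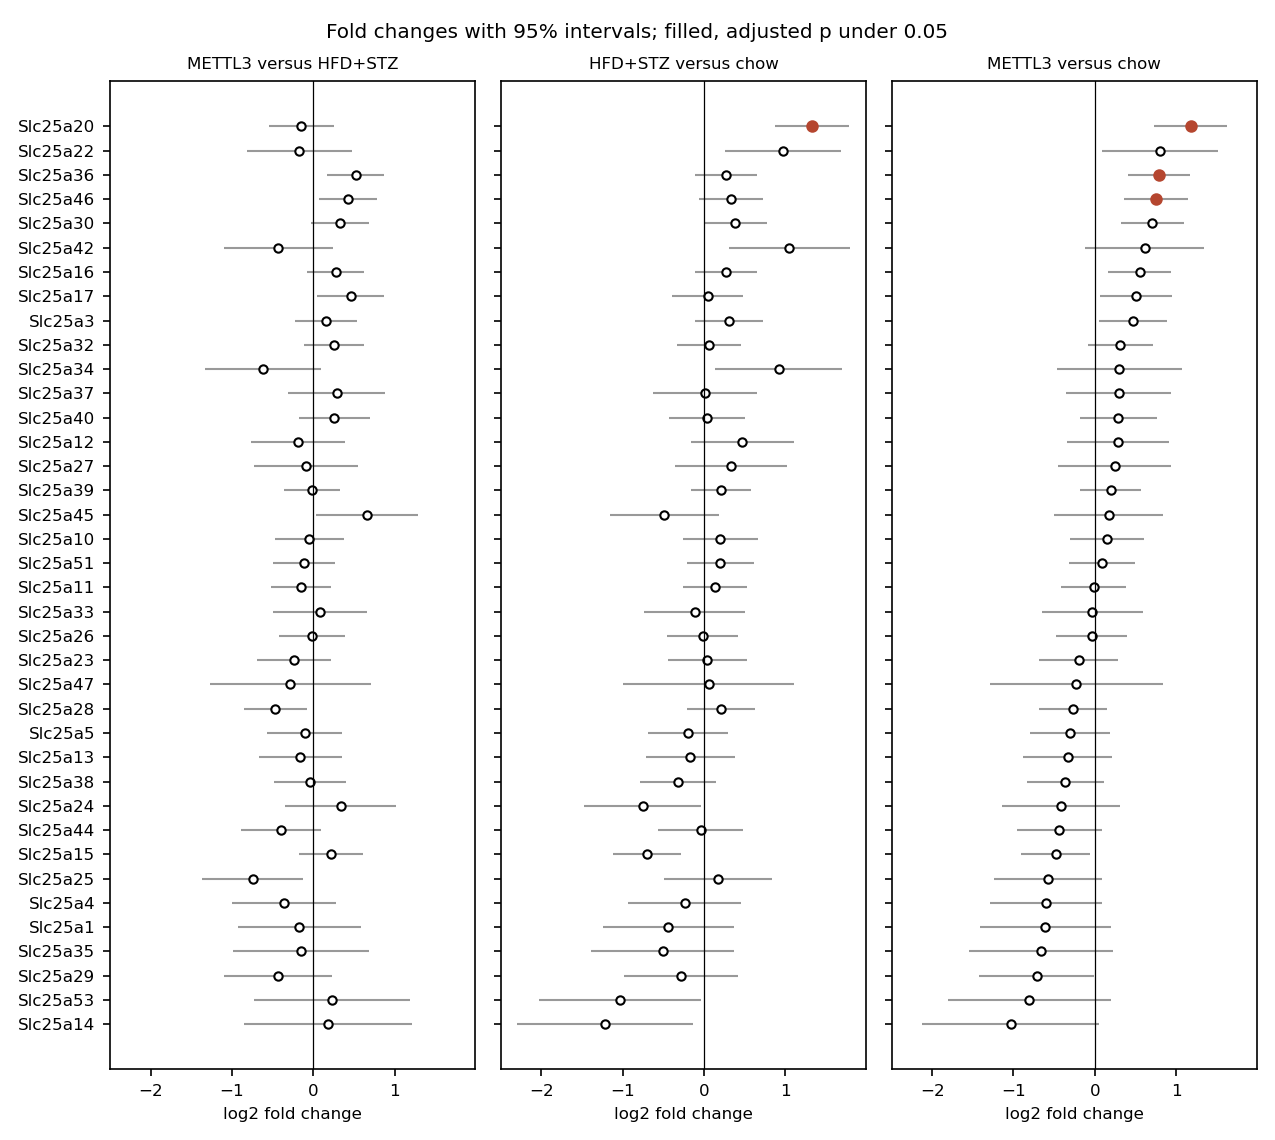
Log2 fold change with its 95% interval for 38 tested carriers in the 3 comparisons, ordered by METTL3-labelled over chow hearts. Filled points are those with an adjusted p under 0.05: Slc25a20 in both comparisons with chow, and Slc25a36 and Slc25a46 in METTL3-labelled against chow hearts.

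Slc25a20 carries acylcarnitines into the matrix in return for free carnitine, a step that all long-chain fatty acids bound for oxidation pass by way of the carnitine shuttle. Its gene lies on chromosome 9 at 108662088 to 108684641 on the plus strand (mm10). It had 294, 239, 241 and 289 CPM in METTL3-labelled hearts, 203, 340.0, 333 and 301 CPM in HFD+STZ hearts and 124, 126 and 103 CPM in chow hearts. All 8 HFD+STZ and METTL3-labelled libraries lay above all 3 chow libraries, with a gap between 203 and 126 CPM. In terms of log2 fold change, HFD+STZ over chow hearts gave 1.32 (SE 0.21), or 2.505-fold (95% interval 1.83 to 3.43; edgeR, Benjamini-Hochberg adjusted p = 0.0309). METTL3-labelled over chow hearts gave 1.18 (SE 0.21) on the log2 scale (edgeR, Benjamini-Hochberg adjusted p = 0.0202). METTL3-labelled and HFD+STZ hearts overlapped, with a log2 fold change of -0.15 (SE 0.19; edgeR, Benjamini-Hochberg adjusted p = 0.863).

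The size of the Slc25a20 difference was steadier than its call. Leaving out any single library kept the log2 fold change of HFD+STZ over chow hearts between 1.24 and 1.47. The edgeR Benjamini-Hochberg adjusted p was 0.00338 without HFD+STZ library 1 and 0.0185 without chow library 3. It lay between 0.0534 and 0.0729 without any single METTL3-labelled library, and was 0.119, 0.138 and 0.125 without HFD+STZ libraries 2, 3 and 4 and 0.0918 and 0.127 without chow libraries 1 and 2. For METTL3-labelled over chow hearts the call was lost without METTL3-labelled library 1 or 4 (adjusted p of 0.0565 and 0.0676, edgeR) and without chow library 2 (0.0662). Among the libraries with codes of 78 and above, METTL3-labelled library 4 had 289 CPM and HFD+STZ library 1 203 CPM, against 103 to 126 CPM in the chow libraries. With a term for code range in the model, log2 fold changes were 1.14 for HFD+STZ and 1.02 for METTL3-labelled over chow hearts, and neither passed (edgeR adjusted p of 0.592 and 0.148).

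The stretch just before the Slc25a20 and Slc25a36 genes is shown because both are called genes with a start site in the RefSeq promoter table (GRCm38.p6), and it lets their letters be compared. For Slc25a20 it is chr9:108661886-108662087 on the plus strand, with GC boxes (CCGCCC or its reverse complement) in capitals. For Slc25a36 it is chr9:97111158-97111291 on the minus strand, with a cyclic AMP response element (TGACGTCA, which reads the same on both strands) in capitals. Each stretch stops where the gene begins in the count table, which is before the RefSeq start site. The letters between there and the start site are not printed, and they hold a GC box in Slc25a36 and a further GC box in Slc25a20.
Slc25a20: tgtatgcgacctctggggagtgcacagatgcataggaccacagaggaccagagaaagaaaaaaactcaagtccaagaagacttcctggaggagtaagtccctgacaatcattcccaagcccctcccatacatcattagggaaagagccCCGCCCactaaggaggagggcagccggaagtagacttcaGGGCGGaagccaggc
Slc25a36: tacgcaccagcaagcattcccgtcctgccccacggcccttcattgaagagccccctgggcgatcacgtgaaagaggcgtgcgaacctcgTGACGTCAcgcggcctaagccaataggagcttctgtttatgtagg
Promoter windows were found for 36 of the 47 carriers, and letters were searched on both strands. The GC box stood in 30 of those 36 and in 38.2% of all 27025 genes with a window. The cyclic AMP response element stood in the windows of Slc25a25 and Slc25a36, 5.56% of carriers against 2.03% of all genes. Both of these motifs were added after the sequences had been seen. The nuclear receptor motif AGGTCA stood in 4 of 36 (Slc25a34, Slc25a39, Slc25a45 and Slc25a47), 11.1% against 18.1% of all genes, and neither Slc25a20 nor Slc25a36 was among them. The direct repeat bound by PPAR factors, which is built of that motif with a base between, and TNAAGGTCA, the longer motif of ERR receptors that holds it, were in 0 carrier windows and in 0.0481% and 1.43% of all genes. At shares this low, 0 of 36 carriers cannot show whether the family differs from other genes, and only exact letters were searched. The NRF1 motif was in 2 carriers, Slc25a3 and Slc25a31, and in 5.19% of all genes.

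The partners of Slc25a20 in the carnitine shuttle had positive values in HFD+STZ over chow hearts, but none passed in edgeR or DESeq2, while limma voom called Cpt1a, Cpt2, Crat and Slc22a5. Of 7 genes, 7 had a positive log2 fold change in HFD+STZ over chow hearts and 3 had an unadjusted p under 0.05, with a median of 0.76. Over all genes 48.4% were positive, 12.1% had an unadjusted p under 0.05 in either direction (5.58% as higher), and the median was -0.02. The carnitine importer Slc22a5 averaged 34.9 ± 8.67 CPM in HFD+STZ hearts (SD, n = 4) and 20.5 ± 4.98 CPM in chow hearts (SD, n = 3) (edgeR, Benjamini-Hochberg adjusted p = 0.243). Crat, carnitine acetyltransferase, averaged 729 ± 154 CPM against 381 ± 169 CPM in the same groups (edgeR adjusted p of 0.3), and Cpt1a, an isoform of the outer carnitine palmitoyltransferase, 77.9 ± 10.2 CPM against 43.5 ± 19.5 CPM (edgeR adjusted p of 0.33). In METTL3-labelled over chow hearts 6 of 7 were positive, against 49.2% of all genes, with a median of 0.46, and limma voom called Cpt2 and Crat. In METTL3-labelled over HFD+STZ hearts 2 of 7 were positive, against 49.6% of all genes, with a median of -0.19. There Cpt1b, another isoform of the outer carnitine palmitoyltransferase, averaged only 1.01 ± 0.215 CPM against 2.84 ± 0.606 CPM (SD, n = 4 each). These did not overlap (background 4.14% lower). The log2 fold change was -1.47 (SE 0.72; edgeR, Benjamini-Hochberg adjusted p = 0.569). Multi-mapping settings were not stated, and sequence shared with other genes was not checked for Cpt1b. Its low counts are therefore no measure of how much Cpt1b heart makes.

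**Figure D4:**
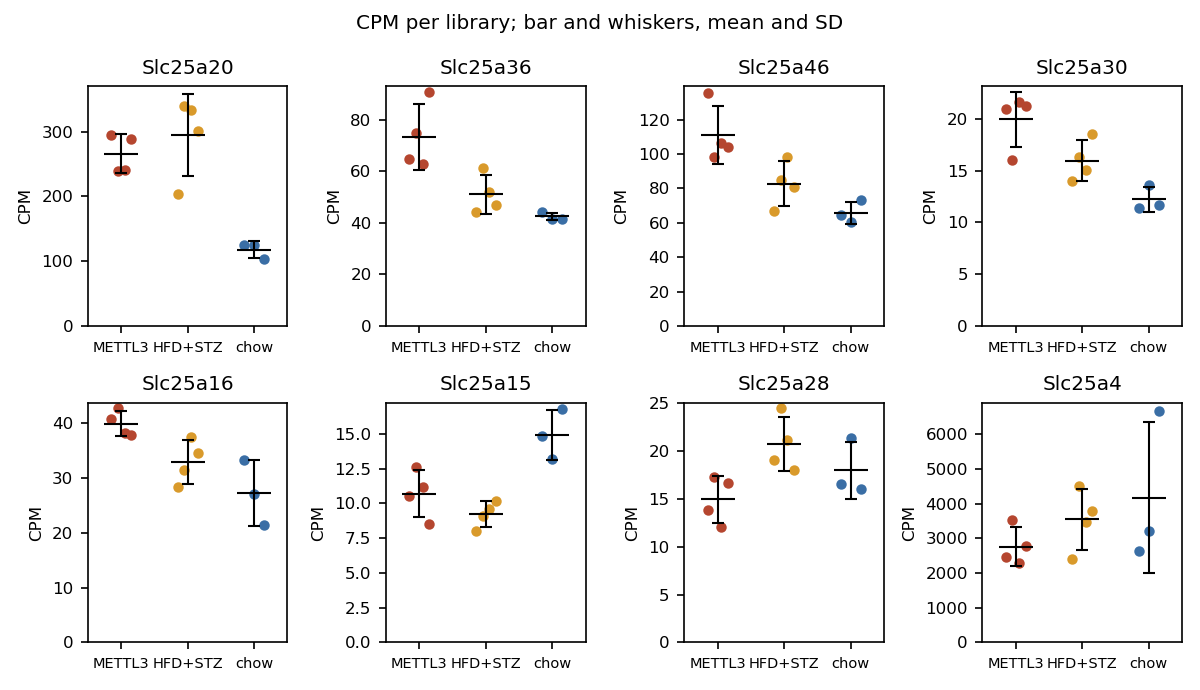
CPM of 8 carriers in every library, with the mean and SD of each group (n = 4, 4 and 3). For Slc25a20 the HFD+STZ and METTL3-labelled points lie above all chow points, and for Slc25a4 chow library 3 lies at 6682 CPM, above all others.

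Slc25a36 carries pyrimidine nucleotides, the building blocks of mitochondrial DNA and RNA. It lies on chromosome 9 at 97074961 to 97111157 on the minus strand (mm10). It had 64.8, 74.9, 63.0 and 90.6 CPM in METTL3-labelled hearts, 44.2, 61.3, 51.8 and 46.9 CPM in HFD+STZ hearts and 44.1, 41.6 and 41.6 CPM in chow hearts. All METTL3-labelled libraries lay above all HFD+STZ and chow libraries, though 63.0 and 61.3 CPM nearly touch. METTL3-labelled over chow hearts gave a log2 fold change of 0.79 (SE 0.18; edgeR, Benjamini-Hochberg adjusted p = 0.0389). METTL3-labelled over HFD+STZ hearts gave 0.52 (SE 0.16), the smallest p of any carrier in that comparison (0.00676 unadjusted, 0.388 adjusted by edgeR with Benjamini-Hochberg). HFD+STZ over chow hearts gave 0.27 (SE 0.18; edgeR, adjusted p = 0.540). Its relative Slc25a33, also a pyrimidine nucleotide carrier, had log2 fold changes of 0.08, -0.12 and -0.03 in METTL3-labelled over HFD+STZ, HFD+STZ over chow and METTL3-labelled over chow hearts.

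Slc25a46 sits in the outer membrane and takes part in mitochondrial fusion and fission. It lies on chromosome 18 at 31580168 to 31609902 on the minus strand (mm10). It had 136, 98.2, 107 and 104 CPM in METTL3-labelled hearts, 66.8, 84.6, 98.5 and 81.1 CPM in HFD+STZ hearts and 64.3, 60.2 and 72.9 CPM in chow hearts. METTL3-labelled libraries all lay above the chow libraries, and overlapped HFD+STZ hearts only at 98.2 against 98.5 CPM. METTL3-labelled over chow hearts gave a log2 fold change of 0.76 (SE 0.18; edgeR, Benjamini-Hochberg adjusted p = 0.0453). METTL3-labelled over HFD+STZ hearts gave 0.43 (SE 0.17; edgeR, adjusted p = 0.485), and HFD+STZ over chow hearts 0.33 (SE 0.18), with 0.467.

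Slc25a36 and Slc25a46 have transcripts of low GC content, and carriers of low GC content tended to higher values in METTL3-labelled over HFD+STZ hearts. GC content is 39.3% in Slc25a36 and 42.5% in Slc25a46, against a median of 50.6% over the tested carriers, and 49.5% in Slc25a20. Across the 39 carriers, Spearman's rho between GC content and the log2 fold change was -0.65 for METTL3-labelled over HFD+STZ, 0.05 for HFD+STZ over chow and -0.22 for METTL3-labelled over chow hearts. Over all genes it was -0.50, -0.04 and -0.36. These genes share the same libraries and are not independent replicates. With an offset for GC content in each library, added after the data had been seen, METTL3-labelled over chow hearts gave log2 fold changes of 0.34 for Slc25a36 and 0.47 for Slc25a46, and neither passed (edgeR with Benjamini-Hochberg, adjusted p of 0.351 and 0.222). METTL3-labelled over HFD+STZ hearts then gave 0.14 and 0.19. Slc25a20 kept 1.17 in METTL3-labelled and 1.28 in HFD+STZ over chow hearts and passed in both (edgeR adjusted p of 0.0292 and 0.0397).

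The sizes of the Slc25a36 and Slc25a46 differences over chow hearts were also steadier than their calls. With any single library left out, METTL3-labelled over chow hearts kept log2 fold changes of 0.67 to 0.85 for Slc25a36. The range for Slc25a46 was 0.65 to 0.83. For Slc25a36 the call held without HFD+STZ library 1 and without chow library 1 or 3, and was lost without each METTL3-labelled library, HFD+STZ libraries 2, 3 and 4 and chow library 2, with adjusted p of 0.0512 to 0.0998 (edgeR, Benjamini-Hochberg). For Slc25a46 it held without HFD+STZ library 1 or chow library 3 and was lost without each of the other 9, with edgeR adjusted p of 0.0568 to 0.121. Where the Slc25a36 call was lost, edgeR called 0.222% to 1.83% of all genes in METTL3-labelled over chow hearts. With all libraries it called 3.2%. Without chow library 1, where Slc25a46 was lost and Slc25a36 was not, it called 4.53%. Among libraries with codes of 78 and above, METTL3-labelled library 4 had 90.6 CPM of Slc25a36 and 104 CPM of Slc25a46, against 41.6 to 44.1 and 60.2 to 72.9 CPM in chow hearts. With a code range term their log2 fold changes over chow hearts were 0.86 and 0.56 (edgeR, adjusted p of 0.164 and 0.278). Among the 6 libraries with codes from 25 to 33, METTL3-labelled over HFD+STZ hearts gave 0.33 for Slc25a36 and 0.36 for Slc25a46.

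The ADP/ATP carriers showed no difference past the threshold. Slc25a4 (chromosome 8, 46206797 to 46211284, minus strand) had 2448, 3542, 2282 and 2778 CPM in METTL3-labelled hearts, 2406, 4509, 3465 and 3801 CPM in HFD+STZ hearts and 2648, 3199.6 and 6682 CPM in chow hearts. Chow library 3 was the highest of all, at over 2-fold the other chow libraries, and the remaining groups overlap. The log2 fold change was -0.36 (SE 0.30) in METTL3-labelled over HFD+STZ, -0.24 (SE 0.32) in HFD+STZ over chow and -0.60 (SE 0.32) in METTL3-labelled over chow hearts. Without chow library 3 the HFD+STZ over chow value changed its direction to 0.28 and the METTL3-labelled over chow value was -0.09. Slc25a5 had 168, 181, 161 and 202 CPM in METTL3-labelled hearts, 156, 226, 194 and 191 CPM in HFD+STZ hearts and 166, 180.1 and 313 CPM in chow hearts. Here too chow library 3 was the highest, and without it the HFD+STZ over chow value went to 0.16, against -0.20 with it. Of the 31-base words of Slc25a5 transcripts, 49.4% also occur in other genes, such as Gm5529, Gm5560 and the pseudogene Slc25a5-ps, so its level is uncertain. Gm5529 itself reached 38 counts in a library. Slc25a4 shares 0% of its words, Slc25a20 8.83% and Slc25a36 7.78%. The level of Slc25a4 was 10.9 ± 1.91 times that of Slc25a5 per kilobase in METTL3-labelled hearts (SD, n = 4), 12.8 ± 1.49 times in HFD+STZ hearts (SD, n = 4) and 12.8 ± 1.91 times in chow hearts (SD, n = 3).

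The phosphate carrier Slc25a3 supplies phosphate to ATP synthase and is the second most abundant member. It had 2191, 2162, 1969 and 2203 CPM in METTL3-labelled hearts, 1564, 2143, 2153 and 1787 CPM in HFD+STZ hearts and 1421, 1366 and 1839 CPM in chow hearts. METTL3-labelled hearts lay above chow hearts without overlap, while HFD+STZ hearts overlapped both. METTL3-labelled over chow hearts gave a log2 fold change of 0.47 (SE 0.19), which missed the threshold (edgeR with Benjamini-Hochberg, adjusted p of 0.182). HFD+STZ over chow hearts gave 0.31 (SE 0.19). The nuclear ATP synthase subunits, which use the phosphate, had 0 of 15 tested members called in each comparison by edgeR. At an unadjusted p under 0.05, 2 were higher and 2 lower in METTL3-labelled over chow hearts and 0 in the others. Over all genes 10.6% were higher and 11.1% lower by that rule in METTL3-labelled over chow hearts. DESeq2 called Atp5o lower in METTL3-labelled against chow hearts, where it called 4.76% of genes lower. In limma voom 1, 2 and 3 of these subunits passed in METTL3-labelled over HFD+STZ, HFD+STZ over chow and METTL3-labelled over chow hearts. The shares of all genes called there were 2.66%, 13.1% and 20.7%.

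Of the calcium-regulated ATP-Mg/phosphate carriers, Slc25a25 had 8.06, 9.18, 9.28 and 7.34 CPM in METTL3-labelled hearts, 12.1, 19.3, 8.77 and 16.7 CPM in HFD+STZ hearts and 13.0, 17.4 and 7.42 CPM in chow hearts. METTL3-labelled libraries were close together, at the low end of the other groups, with which they overlap. In terms of log2 fold change, METTL3-labelled over HFD+STZ hearts gave -0.75 (SE 0.29; edgeR, Benjamini-Hochberg adjusted p = 0.483). Slc25a23 and Slc25a24 had log2 fold changes of -0.24 and 0.33 in METTL3-labelled over HFD+STZ hearts. In HFD+STZ over chow hearts Slc25a24 was at -0.75 and at -0.17 without chow library 3, which held 28.3 CPM against 12.3 and 10.69 CPM in the other chow libraries.

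Among the carriers of carboxylates, Slc25a11 carries oxoglutarate and malate in the malate-aspartate shuttle. It had 454, 412, 389 and 442 CPM in METTL3-labelled hearts, 376, 527, 494 and 486 CPM in HFD+STZ hearts and 386, 384 and 516 CPM in chow hearts. The 3 groups overlap, with a log2 fold change of -0.01 (SE 0.18) in METTL3-labelled over chow hearts. Slc25a34 had 143, 70.7, 122 and 89.3 CPM in METTL3-labelled hearts, 97.3, 181, 164 and 211 CPM in HFD+STZ hearts and 101, 116 and 42.3 CPM in chow hearts. Chow library 3 was the lowest of all, and without it the log2 fold change of HFD+STZ over chow hearts was 0.59, against 0.92 (SE 0.36) with it. Slc25a1, the citrate carrier, Slc25a10, the dicarboxylate carrier, and Slc25a35 had log2 fold changes between -0.66 and 0.20 over the 3 comparisons, and none passed in edgeR or DESeq2, while limma voom called Slc25a35 lower in both comparisons with chow.

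Among the carriers of amino acids, Slc25a15 exchanges ornithine and citrulline in the urea cycle. It had 10.5, 12.6, 11.2 and 8.504 CPM in METTL3-labelled hearts, 7.97, 9.05, 9.61 and 10.2 CPM in HFD+STZ hearts and 14.8, 13.2 and 16.8 CPM in chow hearts. Both HFD+STZ and METTL3-labelled hearts lay below chow hearts without overlap. The log2 fold change was -0.70 (SE 0.19) in HFD+STZ over chow hearts and -0.48 (SE 0.19) in METTL3-labelled over chow hearts, and neither passed (edgeR with Benjamini-Hochberg, adjusted p of 0.202 and 0.170). DESeq2 called it lower in HFD+STZ hearts. Slc25a22, a glutamate carrier, had 58.4, 36.6, 56.0 and 58.2 CPM in METTL3-labelled hearts, 48.2, 73.9, 50.2 and 63.2 CPM in HFD+STZ hearts and 38.97, 38.0 and 13.1 CPM in chow hearts. HFD+STZ hearts did not overlap chow hearts, and chow library 3 lay far below the rest. In terms of log2 fold change, HFD+STZ over chow hearts gave 0.97 (SE 0.33; edgeR, Benjamini-Hochberg adjusted p = 0.300), and 0.62 without that library.

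The aspartate-glutamate carriers Slc25a12 (aralar) and Slc25a13 (citrin) complete the malate-aspartate shuttle with Slc25a11. Per kilobase the ratio of Slc25a12 to Slc25a13 was 1.02 ± 0.206 in METTL3-labelled hearts (SD, n = 4), 1.00 ± 0.1002 in HFD+STZ hearts (SD, n = 4) and 0.649 ± 0.280 in chow hearts (SD, n = 3), where chow library 3 gave 0.327. Log2 fold changes of both were between -0.33 and 0.47, and none passed in edgeR, DESeq2 or limma voom. Of 7 tested enzymes of the malate-aspartate and glycerol phosphate shuttles, 0 were called in any of the 3 comparisons by edgeR or DESeq2. In METTL3-labelled over HFD+STZ, HFD+STZ over chow and METTL3-labelled over chow hearts limma voom called 0, 5 (4 higher, 1 lower) and 3 (all higher). It called 2.66%, 13.1% and 20.7% of all genes in the same order. At an unadjusted p under 0.05 in edgeR there were 1, 3 and 0, against 9.06%, 12.1% and 21.7% of all genes. Slc25a29, a carrier of basic amino acids, Slc25a38, a glycine carrier needed for haem synthesis, and Slc25a44, a carrier of branched-chain amino acids, had log2 fold changes between -0.72 and -0.04, all below 0 in the 3 comparisons. None of them passed in edgeR with all libraries. The Slc25a29 and Slc25a47 genes lie head to head on chromosome 12 with 162 bases between them, and the strand setting of the counting was not stated.

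Among the carriers of cofactors, Slc25a42 brings coenzyme A into the matrix. It had 92.5, 61.7, 86.8 and 69.5 CPM in METTL3-labelled hearts, 65.3, 108, 135 and 111 CPM in HFD+STZ hearts and 71.0, 58.0 and 23.0 CPM in chow hearts. Chow library 3 was the lowest, and HFD+STZ and chow hearts overlap at 65.3 against 71.0 CPM. In terms of log2 fold change, HFD+STZ over chow hearts gave 1.05 (SE 0.34; edgeR, Benjamini-Hochberg adjusted p = 0.281), and 0.71 without chow library 3. Slc25a16, linked to coenzyme A, had 40.8, 42.7, 38.3 and 37.9 CPM in METTL3-labelled hearts, 28.3, 31.4, 37.5 and 34.6 CPM in HFD+STZ hearts and 33.4, 27.1 and 21.4 CPM in chow hearts. METTL3-labelled hearts lay above both other groups without overlap, at 0.55 (SE 0.18) over chow and 0.28 (SE 0.16) over HFD+STZ hearts, and neither passed (edgeR with Benjamini-Hochberg, adjusted p of 0.103 and 0.643).

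Slc25a17, a peroxisomal carrier of coenzyme A and other cofactors, had 14.3, 17.4, 15.7 and 18.7 CPM in METTL3-labelled hearts, 14.6, 11.5, 12.3 and 9.73 CPM in HFD+STZ hearts and 14.2, 10.74 and 10.003 CPM in chow hearts. METTL3-labelled hearts lay above chow hearts by a margin of 14.3 against 14.2 CPM, and overlapped HFD+STZ hearts. METTL3-labelled over HFD+STZ hearts gave a log2 fold change of 0.46 (SE 0.19; edgeR, Benjamini-Hochberg adjusted p = 0.514). Slc25a26 brings S-adenosylmethionine, the methyl donor that RNA methylation also uses, into the matrix. It had 14.6, 21.3, 21.4 and 17.5 CPM in METTL3-labelled hearts, 17.0, 23.3, 16.2 and 19.3 CPM in HFD+STZ hearts and 18.8, 22.6 and 16.2 CPM in chow hearts. All groups overlap, and the log2 fold changes were -0.02 (SE 0.19), -0.02 (SE 0.20) and -0.04 (SE 0.20) in METTL3-labelled over HFD+STZ, HFD+STZ over chow and METTL3-labelled over chow hearts. The 95% interval for METTL3-labelled over HFD+STZ hearts was -0.43 to 0.39.

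None of the other carriers of cofactors passed in edgeR or DESeq2. Slc25a32, a folate and FAD carrier, Slc25a39, a glutathione carrier, its relative Slc25a40, and Slc25a51, the NAD carrier, had log2 fold changes between -0.11 and 0.31. Of these, limma voom called Slc25a39 higher in HFD+STZ and Slc25a40 higher in METTL3-labelled over chow hearts. Among carriers, the spread within groups reached an SD of 0.70 on the log2 scale, in Slc25a47.

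The mitoferrins import iron for haem and iron-sulphur clusters. Slc25a28, mitoferrin-2, had 13.8, 17.3, 12.1 and 16.7 CPM in METTL3-labelled hearts, 19.1, 24.4, 21.2 and 18.0 CPM in HFD+STZ hearts and 16.6, 21.3 and 15.96 CPM in chow hearts. METTL3-labelled hearts lay below HFD+STZ hearts without overlap, and chow hearts overlapped both. The log2 fold change of METTL3-labelled over HFD+STZ hearts was -0.47 (SE 0.18; edgeR, Benjamini-Hochberg adjusted p = 0.483). Slc25a37, mitoferrin-1, had 15.3, 42.8, 20.4 and 21.5 CPM in METTL3-labelled hearts, 23.2, 19.7, 23.5 and 15.8 CPM in HFD+STZ hearts and 22.3, 21.4 and 17.4 CPM in chow hearts. METTL3-labelled library 2 lay at about 2-fold the rest of its group, and the groups overlap, with a log2 fold change of 0.29 (SE 0.28) in METTL3-labelled over HFD+STZ hearts. Erythroid markers, which include globins, summed to 311 to 1995 CPM in METTL3-labelled, 523 to 1126 CPM in HFD+STZ and 336 to 2244 CPM in chow hearts. Their part in the mitoferrin levels was not tested.

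Of the relatives of the uncoupling proteins, Slc25a30 had 20.98, 16.03, 21.6 and 21.2 CPM in METTL3-labelled hearts, 14.0, 16.3, 15.04 and 18.5 CPM in HFD+STZ hearts and 11.4, 13.6 and 11.7 CPM in chow hearts. Its levels were ordered METTL3-labelled over HFD+STZ over chow, with overlap between METTL3-labelled and HFD+STZ hearts only. The log2 fold change of METTL3-labelled over chow hearts was 0.71 (SE 0.18), just short of the threshold (edgeR with Benjamini-Hochberg, adjusted p of 0.0538). DESeq2 and limma voom called it. HFD+STZ over chow hearts gave 0.39 (SE 0.18; edgeR, adjusted p = 0.414). Slc25a14 had 2.11, 2.004, 1.58 and 1.34 CPM in METTL3-labelled hearts, 1.90, 1.70, 0.905 and 1.70 CPM in HFD+STZ hearts and 1.97, 1.83 and 7.08 CPM in chow hearts, from 13 to 126 counts. Chow library 3 stood apart here, and without it the log2 fold change of HFD+STZ over chow hearts was -0.28, against -1.21 (SE 0.50) with it. Slc25a27 had log2 fold changes between -0.09 and 0.33.

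The uncoupling proteins Ucp2 and Ucp3, which belong to the same protein family but not to the naming rule, had larger values. Ucp3 averaged 109 ± 47.3 CPM in METTL3-labelled hearts (SD, n = 4), 168 ± 74.9 CPM in HFD+STZ hearts (SD, n = 4) and 31.99 ± 17.0 CPM in chow hearts (SD, n = 3). HFD+STZ over chow hearts gave a log2 fold change of 2.39 (SE 0.48) without overlap, which missed the threshold (edgeR with Benjamini-Hochberg, adjusted p of 0.0641). Ucp2 averaged 164 ± 27.9, 206 ± 70.4 and 74.4 ± 31.2 CPM in METTL3-labelled, HFD+STZ and chow hearts, with a log2 fold change of 1.47 (SE 0.32) in HFD+STZ over chow hearts (edgeR, adjusted p = 0.106). DESeq2 and limma voom called both genes higher in HFD+STZ and in METTL3-labelled over chow hearts.

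Slc25a45, Slc25a47 and Slc25a53 are carriers of low level here. Slc25a45 had 3.84, 8.85, 4.90 and 5.91 CPM in METTL3-labelled hearts, 4.29, 3.10, 3.97 and 3.47 CPM in HFD+STZ hearts and 4.24, 6.44 and 4.95 CPM in chow hearts. The groups overlap, and the log2 fold change of METTL3-labelled over HFD+STZ hearts was 0.66 (SE 0.29; edgeR with Benjamini-Hochberg, adjusted p of 0.534). Slc25a53 was at -1.03 and Slc25a47 at 0.06 in HFD+STZ over chow hearts, and neither passed in edgeR, DESeq2 or limma voom.

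**Figure D5:**
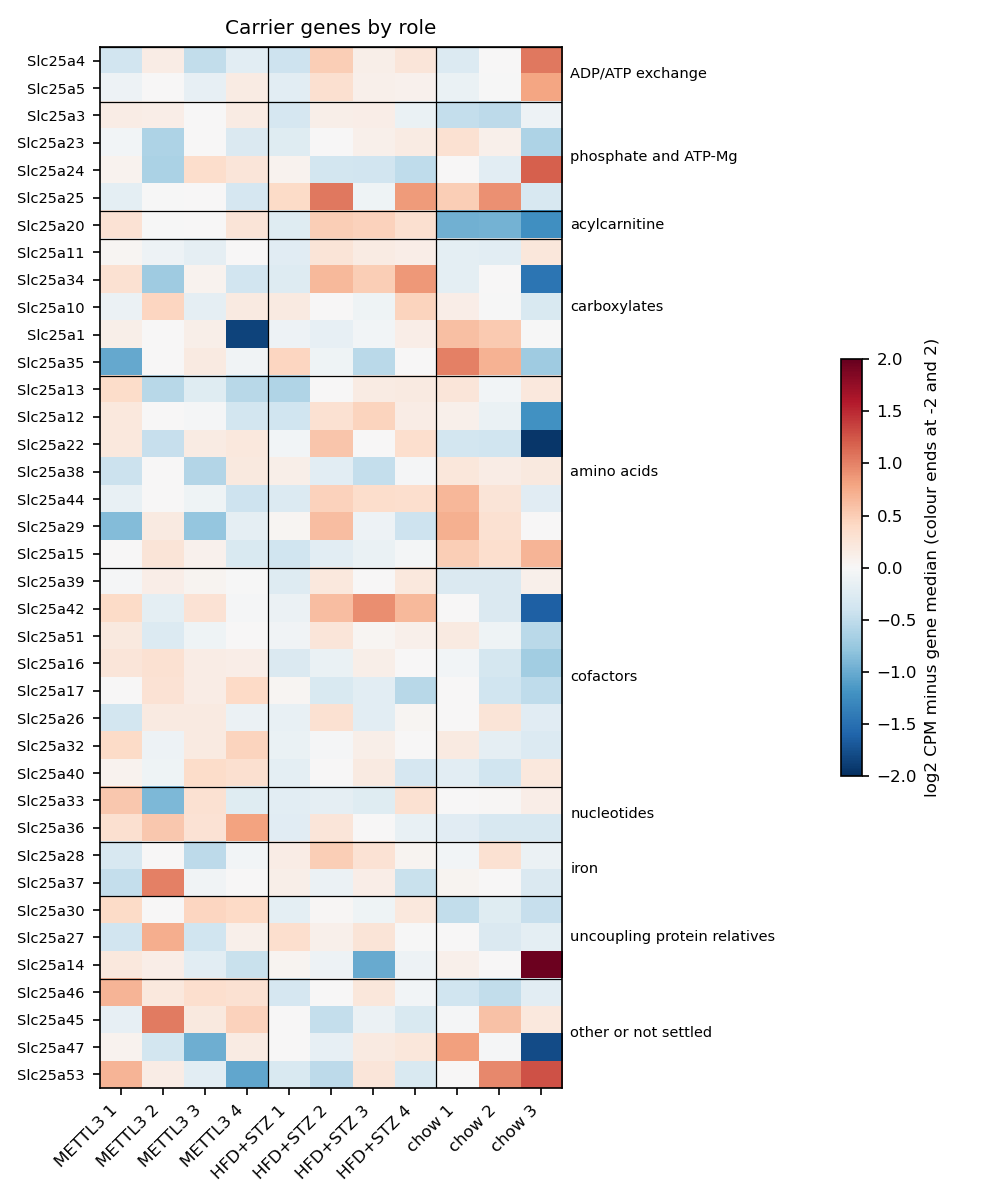
Log2 CPM of each of 38 tested carriers relative to its median over 11 libraries, grouped by role, with colours ending at -2 and 2. Chow library 3 differs from its group in many rows, such as Slc25a4, Slc25a22, Slc25a42 and Slc25a14, and Slc25a20 is low in all chow libraries.

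Carrier proteins reach the inner membrane through the TIM22 import machinery. Of 11 genes of that machinery, edgeR called Timm13, a small chaperone of the intermembrane space, lower in METTL3-labelled than in chow hearts and no other in any of the 3 comparisons. It averaged 17.9 ± 4.03 CPM in METTL3-labelled hearts (SD, n = 4), 29.3 ± 4.89 CPM in HFD+STZ hearts (SD, n = 4) and 63.5 ± 58.9 CPM in chow hearts (SD, n = 3), a log2 fold change of -1.83 (SE 0.44) over chow (edgeR, Benjamini-Hochberg adjusted p = 0.0457). The SD among the chow libraries is nearly as large as their mean. In METTL3-labelled over chow hearts DESeq2 called Timm13 lower and the import receptor Tomm70a higher, and limma voom called both likewise and Tomm20, another import receptor, higher. In limma voom Timm13 was also called lower in METTL3-labelled than in HFD+STZ hearts, and Tomm70a higher in HFD+STZ over chow hearts. Of 14 other inner membrane carriers, which include the pyruvate carrier and the calcium uniporter, 3 outer membrane channels, and 7 creatine and nucleotide kinases, 0 were called in any comparison by edgeR. DESeq2 called Ghitm, an inner membrane protein, in METTL3-labelled over chow hearts, where limma voom called Ghitm, Letm1, Vdac3, Ckm and Nme4, and limma voom called Ckb and Nme4 in HFD+STZ over chow hearts. At an unadjusted p under 0.05 these lists gave 1, 0 and 0 members in METTL3-labelled over HFD+STZ, 0, 0 and 1 in HFD+STZ over chow, and 4, 0 and 2 in METTL3-labelled over chow hearts. Over all genes that rule gave 9.06%, 12.1% and 21.7% in the 3 comparisons. Of all genes, edgeR called 3.2% and DESeq2 10.2% in METTL3-labelled over chow hearts. The shares for limma voom were 2.66%, 13.1% and 20.7% in the 3 comparisons.

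The mitochondrial genome encodes subunits of the respiratory complexes and of ATP synthase. Of its 13 protein genes, edgeR called mt-Nd1, mt-Nd2 and mt-Nd6 higher in METTL3-labelled over chow hearts, where it called 1.82% of all genes higher. DESeq2 and limma voom called 9 each there, where they called 5.42% and 11.5% of genes higher. All 13 were above 0 there, with a median log2 fold change of 1.45, against -0.01 over the carriers. In METTL3-labelled over HFD+STZ hearts 11 of 13 were above 0 with a median of 0.69, against -0.09 over the carriers, and 0 passed in edgeR. At an unadjusted p under 0.05, 5 were higher there (background 5.43%). Both DESeq2 and limma voom called 3, where they called 1.29% and 2.66% of genes. mt-Nd6 is encoded on the strand opposite to the other mitochondrial protein genes. The strand setting of the counting was not stated, so RNA from either strand may be counted in it. Since the mitochondrial genes take 9.28% to 45.5% of counts, scaling was repeated on nuclear genes alone. Slc25a20 and Slc25a36 then passed again in METTL3-labelled over chow hearts, and Slc25a46 missed the threshold (edgeR, Benjamini-Hochberg adjusted p = 0.0502). With DESeq2 size factors it missed it as well (0.0504).

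Some markers of single cell types differed between groups. Of the 8 cardiomyocyte markers edgeR called 0 in each comparison. In METTL3-labelled over HFD+STZ hearts DESeq2 called Mb and Pln (1.29% of genes), and limma voom these and Myh6 (2.66% of genes). In METTL3-labelled over chow hearts DESeq2 called Actc1 and Pln (10.2% of genes), and limma voom these with Mb, Myh6 and Myl2 (20.7% of genes). Markers of other cell types differed as well. All 8 macrophage markers were present, and edgeR called 3 lower in METTL3-labelled than in chow hearts, where it called 1.37% of all genes lower. DESeq2 called 6 of them lower and limma voom 7, where they called 4.76% and 9.19% of genes lower. In HFD+STZ over chow hearts edgeR and DESeq2 called 0 of them and limma voom 5 lower, where it called 6.31% of genes lower. They summed to 167 to 310 CPM in METTL3-labelled hearts, 256 to 611 CPM in HFD+STZ hearts and 427 to 852 CPM in chow hearts. The 6 smooth muscle and pericyte markers summed to 1297 to 1689 CPM in METTL3-labelled hearts, 853 to 1320 CPM in HFD+STZ hearts and 853 to 1130.5 CPM in chow hearts. The 7 adipocyte markers, white and brown, summed to 640.4 to 1050 CPM, 794 to 1038 CPM and 295 to 1313 CPM in METTL3-labelled, HFD+STZ and chow hearts. Endothelial, fibroblast, lymphocyte, neutrophil, skeletal muscle and nerve markers gave sums that overlapped between METTL3-labelled and chow hearts, except for lymphocytes, at 0.0895 to 1.25 CPM in METTL3-labelled and 2.14 to 2.69 CPM in chow hearts. The part of these cell types in the carriers' differences was not tested.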

How the data were processed

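RNA from whole mouse hearts was extracted with Trizol, depleted of ribosomal RNA and made into libraries, per the labels' protocols. The values are whole-number counts per gene as deposited by the authors, in a single table of 54532 genes; FastQC, Salmon and mm10 are named, per the submitters' processing notes, without versions, and strand and multi-mapping settings were not stated. Chromosomes, positions and gene lengths are those of the table. All 11 libraries, with 13900531 to 16952639 counts, entered a group-means model in edgeR 4.0.16 (R 4.3.3), with TMM scaling, a filter on low counts (minimum count 10, minimum total 15) that left 14862 genes, the quasi-likelihood test and Benjamini-Hochberg adjustment over those genes at 0.05. CPM use TMM-scaled library sizes. Alternatives were DESeq2 1.42.0, limma 3.58.1 voom with quality weights, other scalings, filters and sample choices, a term for the replicate number or for the range of sample codes and, added after the data had been seen, an offset for transcript GC content. The script was tested on simulated data. Members and gene lists were chosen with earlier results of these data known. Library values are given for 20 carriers: those past the adjusted threshold, the 6 with the smallest p in each comparison, the 6 with the highest level per kilobase, the ADP/ATP carriers, Slc25a20, Slc25a26 and the mitoferrins; Slc25a12, Slc25a13, Slc25a24 and Slc25a39 are outside this rule and were named after their values were seen. Promoter sequences are from RefSeq (GRCm38.p6). The values of 1 tested carrier are not reported here, and it is left out of the figures.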

Additional observations from a re-analysis of the deposited data

Results flagged for a closer look

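In a check for single libraries far from their group, run over 44 groups of 4 libraries (20 carriers and the family sums), 2 values stood apart, and chance alone gives about 1 in 20. Slc25a22, the glutamate carrier, had 36.6 CPM in METTL3-labelled library 2, against 56.0 to 58.4 CPM in the other METTL3-labelled libraries. Slc25a30, the uncoupling protein relative, had 16.03 CPM in the same library, against 20.98 to 21.6 CPM in the others of its group. Groups of 3, and so all chow libraries, were not checked this way.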

How the results depend on the processing

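Slc25a20 was called in both comparisons with chow under DESeq2, limma voom, DESeq2 size factors, scaling on nuclear genes, either filter and the GC offset; the calls it lost are given in the report and below. Fitting only the groups compared left 0 carriers and 0 genes called by edgeR in HFD+STZ over chow hearts (6 and 1369 at an unadjusted p under 0.05), and 1 carrier and 54 genes in METTL3-labelled over chow hearts. DESeq2 called 2 carriers and 307 genes in HFD+STZ over chow, 5 and 1509 in METTL3-labelled over chow, and 139 genes in METTL3-labelled over HFD+STZ hearts. In limma voom these were 11 and 1954, 13 and 3078, and 395 genes. Leaving out chow library 3 and HFD+STZ library 1 together gave 2 and 493, 6 and 1258, and 403 genes. Without a filter on low counts 190 and 747 genes were called over chow in HFD+STZ and METTL3-labelled hearts, and with a stricter filter 41 in HFD+STZ over chow hearts. The code range term left 0 carriers and 1 gene in each comparison with chow (edgeR; 5 carriers in HFD+STZ and 9 in METTL3-labelled hearts at an unadjusted p under 0.05). The GC offset left 1 carrier and 116 genes in METTL3-labelled over chow hearts. The cause of these moves was not tested.

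Whether replicate numbers pair the samples was looked at through correlations of deviations from group means. Same-numbered libraries gave -0.159 to 0.131 in METTL3-labelled with HFD+STZ and -0.126 to -0.0474 in HFD+STZ with chow hearts. METTL3-labelled with chow hearts gave -0.229 to 0.162. Libraries with different numbers gave values from -0.189 to 0.220. The 3 or 4 same-numbered pairs per comparison are too few to settle a pairing. With the replicate block 0 carriers and 2 genes were called in HFD+STZ over chow hearts, and 0 carriers and 5 genes in METTL3-labelled over chow hearts (edgeR; 4 and 7 carriers at an unadjusted p under 0.05).

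The median log2 fold change of the carriers was -0.13 under the code range term in METTL3-labelled over chow hearts, and under the GC offset 0.075 there and 0.067 in METTL3-labelled over HFD+STZ hearts. Some values changed sign. In HFD+STZ over chow hearts they were Slc25a25 (voom -0.15, code range -0.049, without both libraries -0.028), Slc25a17 (without both -0.16, GC -0.0026), Slc25a4 (voom 0.28, without both 0.42), Slc25a5 (0.17 and 0.24 in the same settings) and Slc25a37 (voom -0.14, stricter filter -0.0053, groups compared only -0.0038, without both -0.15, GC -0.037). In METTL3-labelled over chow hearts they were Slc25a45 (voom -0.20), Slc25a34 (voom -0.016, code range -0.16, without both -0.038), Slc25a11 (voom 0.14, without both 0.13, GC 0.15), Slc25a5 (without both 0.034), Slc25a26 (GC 0.0019) and Slc25a37 (voom -0.031). In METTL3-labelled over HFD+STZ hearts the GC offset turned Slc25a22 (0.10), Slc25a11 (0.067) and Slc25a26 (0.059).

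Leaving out each library in turn gave 0 to 1 carriers and 1 to 215 genes in HFD+STZ over chow hearts, with medians of 0.0078 to 0.16, and 0 to 3 carriers and 34 to 750.0 genes in METTL3-labelled over chow hearts, with medians of -0.088 to 0.10. Values that changed sign ranged, in HFD+STZ over chow hearts, over -0.46 to 0.28 for Slc25a4, -0.35 to 0.16 for Slc25a5, -0.058 to 0.23 for Slc25a17, -0.094 to 0.49 for Slc25a25, -0.14 to 0.14 for Slc25a26 and -0.083 to 0.13 for Slc25a37. In METTL3-labelled over chow hearts the ranges were -0.47 to 0.033 for Slc25a5, -0.085 to 0.13 for Slc25a11, -0.16 to 0.10 for Slc25a26, -0.039 to 0.57 for Slc25a34, -0.10 to 0.47 for Slc25a37 and -0.10 to 0.36 for Slc25a45. In METTL3-labelled over HFD+STZ hearts they were -0.0040 to 0.29 for Slc25a14, -0.091 to 0.10 for Slc25a26 and -0.10 to 0.46 for Slc25a37.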

Other observations

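Some SLC25 genes lie next to each other on the mm10 map. Slc25a41 and Slc25a23 on chromosome 17 lie 2056 bases apart, Slc25a54 and Slc25a24 on chromosome 3 lie 6461 bases apart, and Slc25a43 and Slc25a5 on the X chromosome lie 18448 bases apart. In each of these pairs the partner named first was not tested for low counts, while the other was. Slc25a41 and Slc25a54 had 0 counts in every library.

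The ratio of mitoferrin-1 to mitoferrin-2 per kilobase was 0.413 ± 0.153 in METTL3-labelled hearts (SD, n = 4), 0.252 ± 0.0486 in HFD+STZ hearts (SD, n = 4) and 0.288 ± 0.0449 in chow hearts (SD, n = 3). The highest value, 0.623, came from METTL3-labelled library 2, and the ranges of METTL3-labelled and HFD+STZ hearts overlap, at 0.280 and 0.306.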
